A study of Mus musculus with 24 samples.

Results

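The genes described here make, store, take back and break down the catecholamines adrenaline, noradrenaline and dopamine in the mouse adrenal gland. They are Th, Ddc, Dbh, Pnmt, Gch1, Slc18a1, Slc18a2, Slc6a2 and Maoa. All probe sets (groups of short probes against 1 transcript) that the platform's annotation gives to these symbols were taken, which gave 21 of 45037 non-control probe sets, for 9 of 18193 named genes. Whole adrenal glands came from adult male C57B/6J mice aged 3 months, kept for 2 weeks in alternating 12 h of light and 12 h of darkness and then in constant darkness. Affymetrix arrays measured transcripts at 12 time points, the earliest 38 h and the latest 82 h after lights off and 4 h apart, on 2 arrays each. The labels call all samples wild type (wt), and all groups share genotype, strain, sex, age and housing and differ in time. Hours after lights off minus 12, modulo 24, gave 6 projected circadian times (2, 6, 10, 14, 18 and 22), where time 0 is when lights would have come on and 12 to 24 is the projected night. Nothing in the labels ties an array to its own animal, so the p-values below cover just the spread among these arrays, part of which may be technical.

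The values of 6 pairs of arrays lay closer together than the noise separating other arrays of the same circadian time (within 5% for all probe sets reaching a signal of 50), and each pair was averaged and counted as 1 sample. This left 18 profiles, 3 per circadian time. All arrays of circadian times 10 and 18 formed a second array set (6 profiles) that stood apart from the first set of circadian times 2, 6, 14 and 22 (12 profiles): the ThrX-3 control read 513 to 1860 in the second set and 56.3 to 101 in the first. Gapdh probe sets at the 5′ and 3′ ends had a signal ratio (5′ over 3′) of 0.0386 to 0.978 in the second set and 1.03 to 1.15 in the first, with the lowest in 78 h replicate 2. Acta1, an actin of skeletal muscle, exceeded a signal of 1000 in 4 of the 6 second-set profiles, and the sum of 7 muscle markers was 465 to 36176 in the second set against 524 to 652 in the first, where 2 or 3 of the 7 were at 0 in each profile. A level at circadian time 10 or 18 therefore cannot be told apart from its array set when it is set against the other times, and the part of muscle RNA in any result was not tested. The tissue label held: 19 chromaffin markers summed to 49800 to 60305 in the second set and 49450 to 60850 in the first, and 12 cortex markers to 85142 to 103790 in the second set and 99619 to 110603 in the first, with none of either list at 0.

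Chromaffin cells of the adrenal medulla convert tyrosine to DOPA (tyrosine hydroxylase, Th), DOPA to dopamine (DOPA decarboxylase, Ddc), dopamine to noradrenaline inside secretory granules (dopamine beta-hydroxylase, Dbh) and noradrenaline to adrenaline (phenylethanolamine N-methyltransferase, Pnmt). Gch1 encodes GTP cyclohydrolase, the first enzyme of tetrahydrobiopterin synthesis, the cofactor that Th needs. The vesicular monoamine transporters Slc18a1 and Slc18a2 fill the granules, Slc6a2 is the plasma membrane noradrenaline transporter, and monoamine oxidase A (Maoa) oxidises catecholamines at mitochondria. Glucocorticoids from the surrounding cortex are known to maintain Pnmt expression in the medulla.

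Promoter windows of 250 bases before to 50 after the gene start were matched in RefSeq (GRCm38.p6) for 6 of the 9 genes (7 windows, with none for Pnmt, Slc18a1 and Slc6a2). The windows of 3 genes are shown because their levels took different courses: Gch1 was high in the late night, Slc18a2 was high in the projected day, and Th passed no rhythm test that lacked a marker term. Capitals mark the cyclic AMP response element TGACGTCA, the site bound by CREB, or the shorter site TGACG inside it.
Th, chr7:142899946-142900245, minus strand: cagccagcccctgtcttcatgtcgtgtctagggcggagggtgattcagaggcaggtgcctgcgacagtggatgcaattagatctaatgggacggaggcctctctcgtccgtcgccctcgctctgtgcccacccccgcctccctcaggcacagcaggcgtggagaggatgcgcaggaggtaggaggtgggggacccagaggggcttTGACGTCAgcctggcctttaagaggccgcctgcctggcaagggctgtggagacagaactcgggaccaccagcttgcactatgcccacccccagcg
Gch1, chr14:47189364-47189663, minus strand: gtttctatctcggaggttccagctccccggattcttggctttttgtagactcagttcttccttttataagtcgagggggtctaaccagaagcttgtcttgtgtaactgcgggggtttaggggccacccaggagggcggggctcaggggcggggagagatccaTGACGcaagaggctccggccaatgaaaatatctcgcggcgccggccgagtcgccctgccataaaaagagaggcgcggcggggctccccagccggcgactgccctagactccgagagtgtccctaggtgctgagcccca
Slc18a2, chr19:59260628-59260927, plus strand: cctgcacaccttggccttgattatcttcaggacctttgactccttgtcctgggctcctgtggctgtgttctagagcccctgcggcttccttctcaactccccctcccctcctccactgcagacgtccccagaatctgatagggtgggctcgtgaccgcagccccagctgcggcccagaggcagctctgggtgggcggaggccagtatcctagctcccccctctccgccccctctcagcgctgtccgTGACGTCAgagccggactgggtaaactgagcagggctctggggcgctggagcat
The full element TGACGTCA began 45 bases before the Th start and 4 bases before the Slc18a2 start, and 1.79% of 32851 mouse promoter windows of this length held it. The shorter site TGACG was searched on both strands, is contained in the full element, and was held by 20.8% of windows. It began 88 bases before the Gch1 start and 209 bases before the Maoa start. Its reverse complement CGTCA began 222 bases before the Dbh start. The partial nuclear receptor site AGGTCA, held by 16.3% of windows, matched as its reverse complement TGACCT 73 bases before a Ddc start. The partial glucocorticoid receptor site TGTTCT, held by 19% of windows, began 185 bases before the Slc18a2 start. The E-box CACGTG, bound by CLOCK and BMAL1, was in none of the 7 windows and in 7.15% of all windows, and the D-box TTATGTAA was in none of the 7 and in 0.938% of all. These matches describe letters in the window and not binding.

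Of the 21 probe sets, 17 passed the filter on dim values (a mean signal of at least 184). A 24 h cosine was fitted to each on the log2 scale with limma, where amplitude is the distance from the mean to the peak in log2 units. Without a term for the array set, 7 of the 17 passed an adjusted p of 0.05, against 10.2% of all 27022 probe sets tested. With the array set as a block, which leaves from the second set only the contrast of circadian times 18 and 10, 10 of 17 passed, against 15.9% of all. Within the first array set 9 of 17 passed, against 10.1% of all. Counted by each gene's brightest probe set, 3 of the 9 genes passed without the block (11.3% of all 13879 genes) and 6 with it (16.7%). The median blocked amplitude of the 9 genes was 0.25, beside 0.09 over all genes. Array signals of different probe sets cannot be compared as levels, so levels are compared only across times within a probe set.

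**Figure D1:**
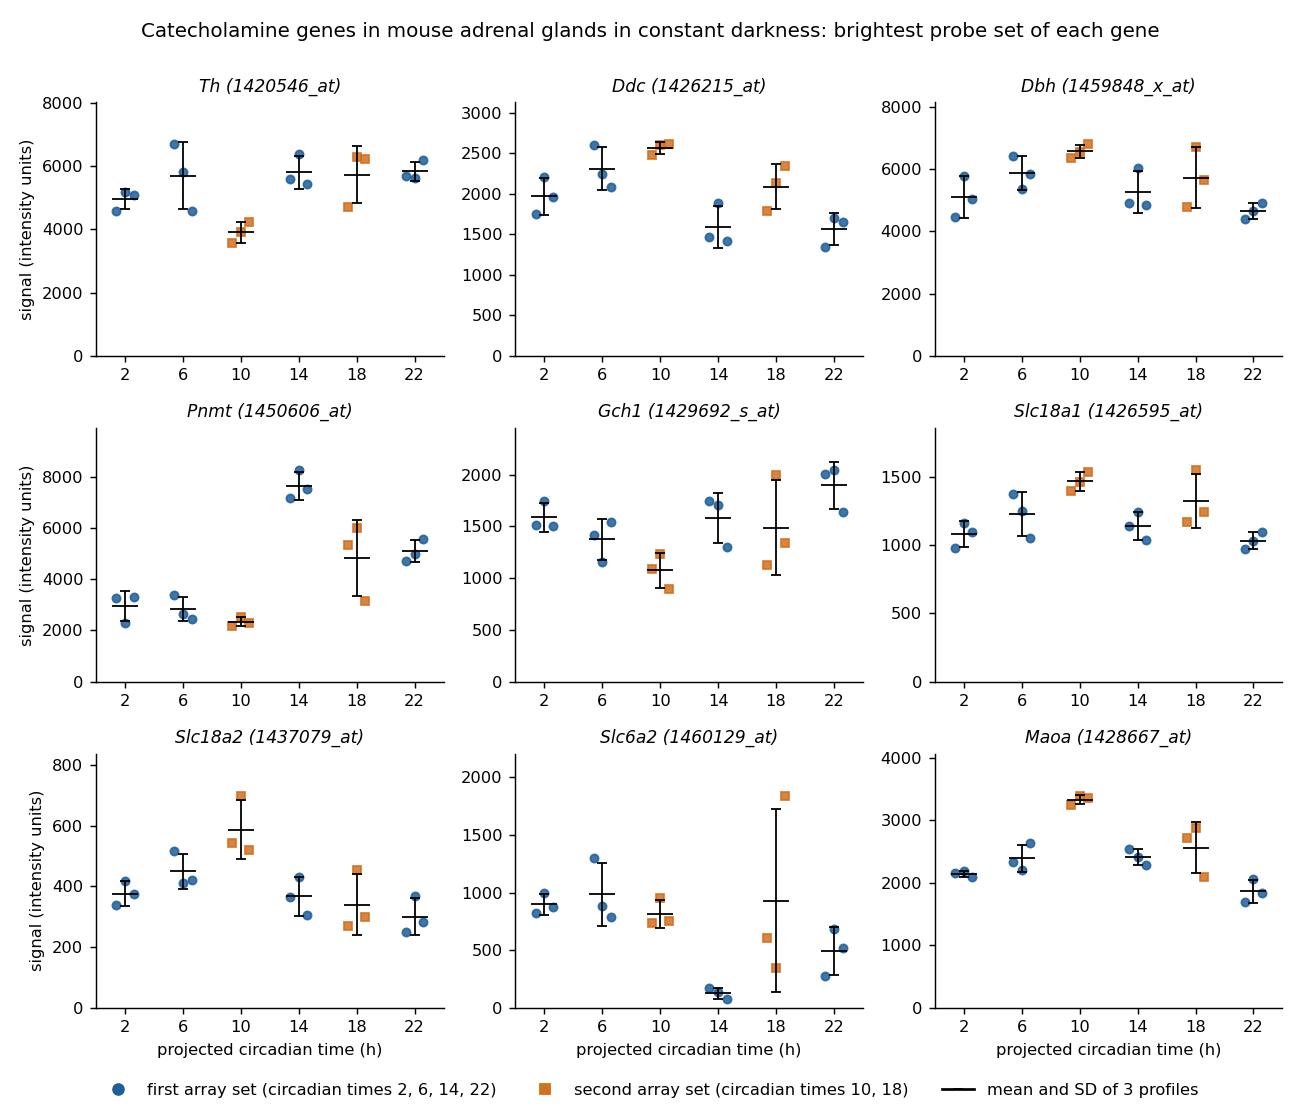
Signal (intensity units, axis from 0) of the brightest probe set of each of the 9 genes against projected circadian time in hours, 3 profiles per time (small sideways offsets separate them; blue circles first array set, orange squares second), with mean and SD in black. Pnmt stands highest at circadian time 14 while Slc6a2 stands lowest there, and 1 Slc6a2 profile of circadian time 18 reads 1836.

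Pnmt, the enzyme that makes adrenaline and the marker of adrenaline-producing chromaffin cells, had the largest amplitude among the 4 enzymes of the synthesis path. Its brightest probe set, 1450606_at (gene on chr11:98386623-98388180, GRCm38.p6), read 3250, 2295 and 3321 at circadian time 2, 3366, 2655 and 2463 at 6, and 2183, 2532 and 2300 at 10. At circadian time 14 it read 7152, 8246 and 7515, at 18 5348, 5982 and 3141, and at 22 4709, 4991 and 5565. All 3 profiles of time 14 lay above every other profile, and all 9 night profiles except 1 lay above all 9 day profiles. The exception, 3141, was 78 h replicate 2, the array with the low Gapdh ratio. Both comparisons set times 10 and 18, from the second array set, beside times of the first. The mean was 7638 ± 557 at circadian time 14 and 2955 ± 573 at 2 (SD, n = 3 each), a ratio of 2.58 on the log2 scale with offset.

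The blocked amplitude of 1450606_at was 0.86 ± 0.08 (SE), a peak-to-trough ratio of 3.3 with the fitted peak at 16.5 h (adjusted p = 1.16e-05), with the second array set fitted below the first by -0.86 on the log2 scale. The second probe set, 1449804_at, gave 0.75 ± 0.05 with the peak at 15.9 h (adjusted p = 5.57e-07). It read 3708, 4416 and 3826 at circadian time 14 against 1614, 1431 and 1655 at 2, and 3119, 4282 and 3138 at 18 against 2327, 2442 and 2168 at 10. At 6 it read 1404 to 1801 and at 22 2309 to 2733, so its night profiles of 22 overlapped its day profiles of 10. Time 10 had the lowest mean of 1450606_at (2338), whereas 1449804_at averaged 2312 at 10 and 1567 at 2. In both probe sets no profile of 14 overlapped 2 and none of 18 overlapped 10. Both also passed without the block (amplitudes 0.66 and 0.70, adjusted p = 0.0162 and 1.51e-06) and within the first array set (0.84 and 0.76, adjusted p = 7.46e-05 and 2.15e-05). The third Pnmt probe set, 1460269_at, read 24 to 87 and was too dim to test.

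**Figure D2:**
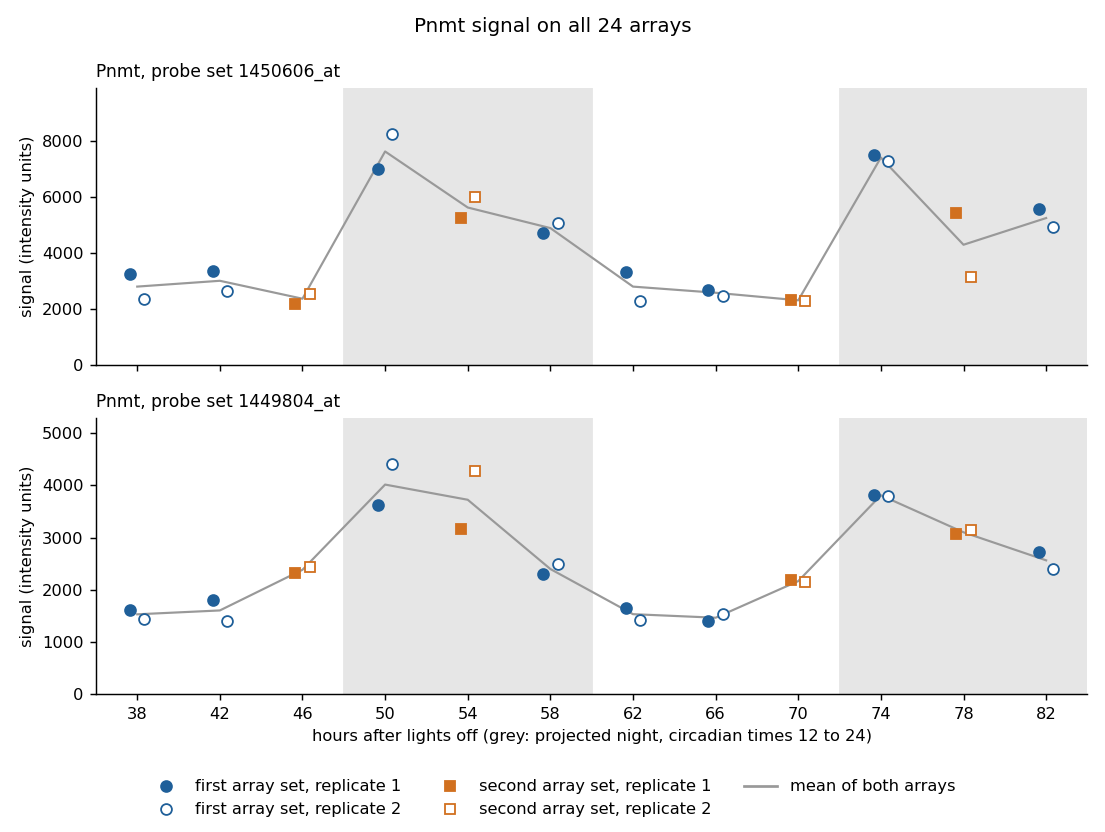
Signal (intensity units, axis from 0) of 2 Pnmt probe sets on all 24 arrays against hours after lights off; blue circles are the first and orange squares the second array set, filled symbols replicate 1 and open symbols replicate 2, the grey line the mean of both arrays, and grey bands the projected night. Both probe sets are highest at 50 and 74 h, but 50 h replicate 1 and 74 h replicate 2 are one of the near-copy pairs, so the cycles are not fully separate samples.

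Th, the rate-limiting enzyme of the path, showed no rhythm past the threshold in the blocked fit. Its probe set 1420546_at (gene on chr7:142892779-142899995) read 4582 to 5186 at circadian time 2, 4584 to 6683 at 6, 3564 to 4221 at 10, 5436 to 6382 at 14, 4691 to 6275 at 18 and 5613 to 6180 at 22. All 3 profiles of time 10 lay below all others, but time 10 lies in the second array set, fitted below the first by -0.29. Within the first array set all 3 profiles of time 2 lay below those of 14 and 22, while time 6 overlapped each of them. The blocked amplitude was 0.19 ± 0.06 (adjusted p = 0.113), and it was 0.24 with an adjusted p of 0.018 when 1 profile of circadian time 6 (42 h replicate 1, 6683) was left out. Within the first array set it was 0.08 ± 0.06 (adjusted p = 0.603). Within the second set, Th was higher at circadian time 18 (4691, 6275 and 6205) than at 10 (3564, 3927 and 4221), by 0.54 ± 0.12 on the log2 scale (adjusted p = 0.00567).

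Ddc, which turns DOPA into dopamine, was high at circadian times 6 and 10, when Pnmt was low, but did not mirror Pnmt at every time. Its bright probe set, 1426215_at (gene on chr11:11814101-11898144), averaged 2312 ± 268 at circadian time 6 and 2563 ± 75 at 10, and was lowest at 22 with 1566 ± 196 and at 14 with 1592 ± 262 (SD, n = 3 each). It averaged 2087 ± 279 at 18, when Pnmt was high, and 1970 ± 229 at 2, when Pnmt was low. Every profile of 6 and 10 lay above every profile of 14 and 22. The second array set, which holds times 10 and 18, was fitted 0.45 above the first. The blocked amplitude was 0.29 ± 0.06 with the peak at 5.81 h (adjusted p = 0.00488), and within the first set it was 0.35 ± 0.07 (adjusted p = 0.0155; 0.0507 without 42 h replicate 1). Without the block the adjusted p was 0.12, and 0.045 when 78 h replicate 2 was left out. The other Ddc probe set, 1430591_at, read 141 to 216 and was not tested.

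Dbh (chr2:27165507-27183204), the granule enzyme that makes noradrenaline, has 3 probe sets, and none passed in the blocked fit of all 18 profiles. The brightest, 1459848_x_at, read 4395 to 6791 over all profiles, with 6368 to 6791 at circadian time 10 and 4395 to 4919 at 22. Its blocked amplitude was 0.16 ± 0.05 (adjusted p = 0.0619), and it passed without 54 h replicate 2 (0.19, adjusted p = 0.0148) and with quantile normalization (0.18, adjusted p = 0.0282). The others gave 0.13 and 0.14 (adjusted p = 0.361 and 0.264), and 1450670_at passed within the first set alone (0.27 ± 0.07, adjusted p = 0.0472), a call lost in 10 of its leave-one-out runs. For 1447592_at the second set stood 0.70 above the first on the log2 scale.

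Gch1 (chr14:47153895-47189413), the source of the cofactor for Th, was highest at circadian time 22 and lowest at 10 in both probe sets. The brightest, 1429692_s_at, read 1506 to 1745 at circadian time 2, 1160 to 1545 at 6, 900 to 1238 at 10, 1298 to 1742 at 14, 1124 to 2000 at 18 and 1638 to 2042 at 22. Time 10 overlapped times 6 and 18. Its blocked amplitude was 0.25 ± 0.07 with the peak at 20.2 h (adjusted p = 0.046). That call was lost in 12 of 18 runs that left out 1 profile, and within the first set the adjusted p was 0.0832.

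The slightly dimmer Gch1 probe set, 1420499_at, had the wider range, from 655 to 2482. It read 1544, 1802 and 1653 at circadian time 2, 1501, 1191 and 1544 at 6, and 672, 846 and 655 at 10. It read 1641, 1645 and 1333 at 14, 1020, 1815 and 1693 at 18, and 2482, 2320 and 1793 at 22. All profiles of time 10 lay below all others, but the second array set, which holds time 10, was fitted below the first by -0.61. The blocked amplitude was 0.47 ± 0.08 with the peak at 20.7 h (adjusted p = 0.00161). Within the first set it was 0.36 ± 0.08 (adjusted p = 0.0212), a call lost without 58 h replicate 1 (0.061) or without the averaged 58 h and 82 h replicates 2 (0.0672).

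The 2 vesicular transporters differed in what passed the test, a difference that was not itself tested. Slc18a2 (1437079_at, chr19:59260878-59296012), the form also used by brain monoamine neurons, read 519 to 698 at circadian time 10, above all other profiles, and 249 to 368 at 22. Its blocked amplitude was 0.36 ± 0.07 with the peak at 7.85 h (adjusted p = 0.00522), and without the block it was 0.37 ± 0.08 (adjusted p = 0.015). The second array set, which holds time 10, was fitted 0.25 above the first. Within the first set, where 410 to 516 at time 6 was the highest level, the adjusted p was 0.0629, and 0.0308 without the averaged 58 h and 82 h replicates 2. Slc18a1 (1426595_at, chr8:69037708-69089238), the form typical of endocrine cells, read 974 to 1547 over all profiles, with a blocked amplitude of 0.11 ± 0.04 (adjusted p = 0.176). Its other probe sets were too dim to test, and 1 of them, 1458777_at, read 91 to 308 in the second set and 0 to 87 in the first, without any overlap.

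Slc6a2 (chr8:92960470-93001667), which returns released noradrenaline to the cell, gave the largest blocked amplitude of all 17 probe sets, but in 1 of its 4 probe sets. Probe set 1460129_at read 820, 996 and 878 at circadian time 2, 1297, 879 and 783 at 6, and 733, 952 and 751 at 10. It read 170, 133 and 75 at 14, 608, 346 and 1836 at 18, and 271, 685 and 520 at 22. All profiles of time 14 lay below all others, and the single highest value, 1836, came from 78 h replicate 2. The ratio of circadian time 6 over 14 was 5.88, and it is understated because the signal at 14 approached the offset of 51.

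In the blocked fit 1460129_at had an amplitude of 1.32 ± 0.20 with the peak at 2.93 h (adjusted p = 0.000858), with the second array set fitted 1.57 above the first, and within the first set 1.40 ± 0.14 at 3.6 h (adjusted p = 0.000298). Without the block the amplitude was 0.82 ± 0.27 (adjusted p = 0.126), and it was 1.08 (adjusted p = 0.0109) when 78 h replicate 2 was left out. Probe set 1447311_at, with 305 to 489, had a blocked amplitude of 0.19 (adjusted p = 0.0338) at 4.34 h, a call lost in 8 of 18 leave-one-out runs. Probe sets 1442449_at (310 to 534) and 1421641_at (284 to 377) did not pass (0.11 and 0.04, adjusted p = 0.251 and 0.768). The probe sets of this gene therefore disagree on the size of the rhythm, and the files do not say which part of the transcript each one reads.

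**Figure D3:**
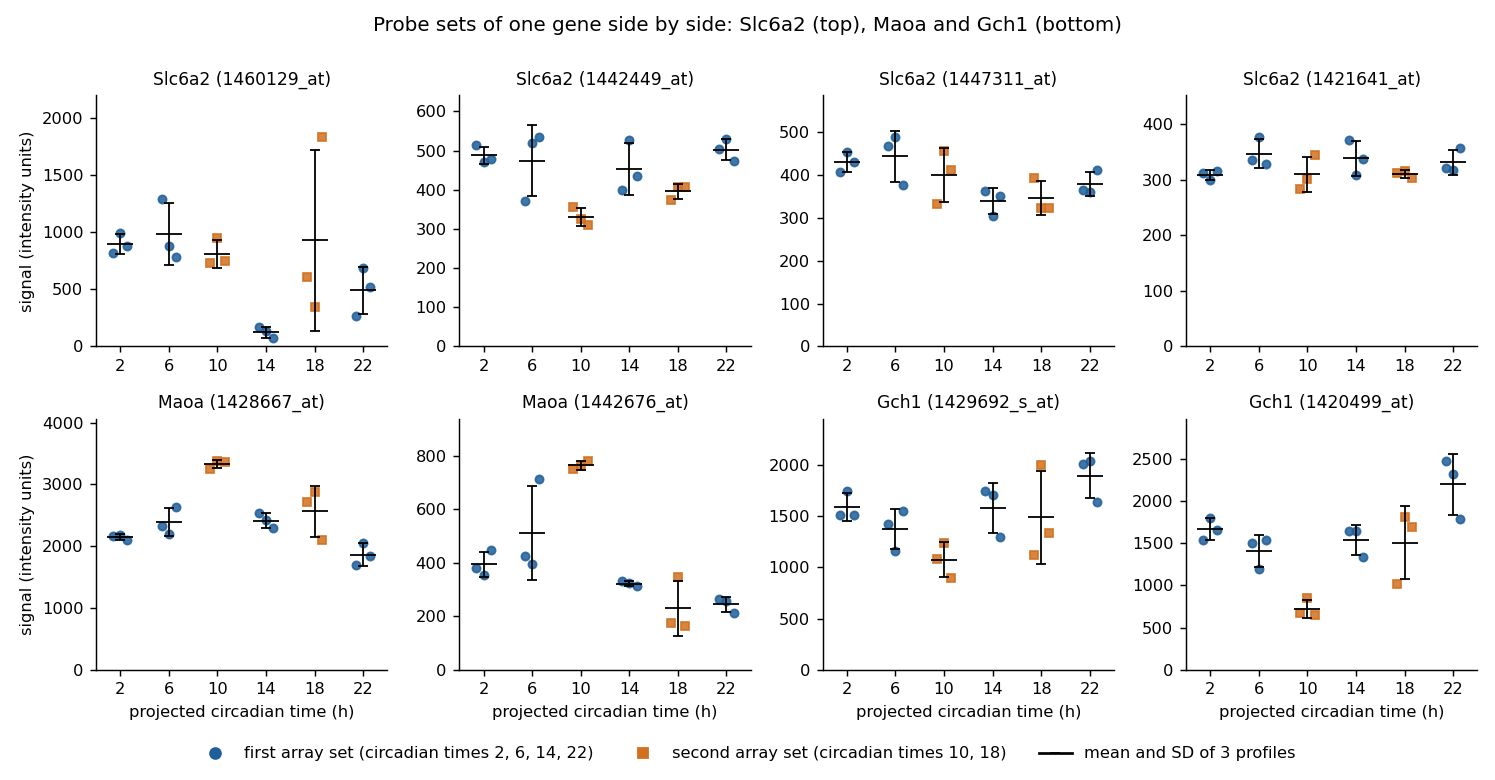
Signal (intensity units, axes from 0) against projected circadian time in hours for the 4 Slc6a2, 2 Maoa and 2 Gch1 probe sets tested, 3 profiles per time (blue circles first array set, orange squares second), with mean and SD in black. Slc6a2 1460129_at drops to 75 to 170 at circadian time 14 while 1421641_at stays between 284 and 377, and both Maoa probe sets are highest at circadian time 10.

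Maoa (chrX:16619698-16687812), which oxidises the amines, was highest at circadian time 10 in both probe sets. Probe set 1428667_at read 2162, 2182 and 2094 at circadian time 2, 2333, 2205 and 2636 at 6, and 3253, 3387 and 3358 at 10. It read 2535, 2418 and 2289 at 14, 2720, 2876 and 2096 at 18, and 1693, 2056 and 1841 at 22. No other profile reached those of time 10, but time 10 lies in the second array set, fitted 0.33 above the first. Within the first set the highest means were 2414 ± 123 at 14 and 2391 ± 221 at 6. Its blocked amplitude was 0.23 ± 0.04 with the peak at 9.64 h (adjusted p = 0.00303). Probe set 1442676_at had 0.73 ± 0.09 at 7.44 h (adjusted p = 0.00024), and both passed within the first set (0.23 and 0.52, adjusted p = 0.0164 and 0.00931). Probe set 1442676_at read 752 to 783 at time 10, 312 to 332 at 14 and 165 to 348 at 18. For it the second array set was fitted 0.29 above the first.

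**Figure D4:**
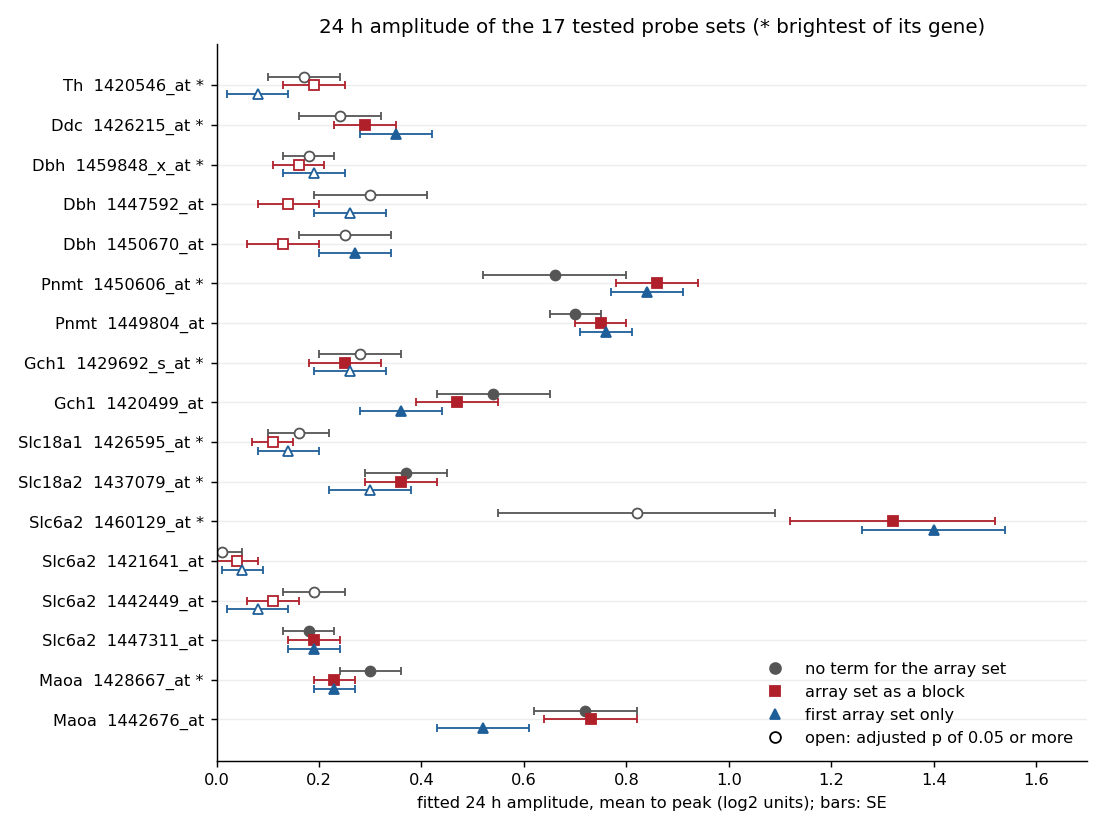
Fitted 24 h amplitude (mean to peak, log2 units) with SE for the 17 tested probe sets, grouped by gene; grey circles are fits without a term for the array set, red squares fits with it as a block and blue triangles fits within the first set, and filled symbols passed an adjusted p of 0.05. Slc6a2 1460129_at, both Pnmt probe sets and Maoa 1442676_at have the largest blocked amplitudes, and Th, Dbh and Slc18a1 have no filled red square.

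The contrast of circadian time 18 with 10 stays inside the second array set, so the difference between the sets does not enter it. Array controls still differed between these times. The ThrX-3 control read 1180 to 1240 at 10 and 513 to 1860 at 18. The 5′ control for 18S ribosomal RNA read 845 to 1040 at 10 and 74.3 to 679 at 18. The part of such array differences in this contrast was not tested. Of the 17 probe sets 7 passed, against 21.7% of all probe sets. Higher at 18 were 4 (Pnmt 1450606_at and 1449804_at, Gch1 1420499_at and Th), against 10.8% of all, and lower were 3 (both of Maoa, and Slc18a2), against 10.9% of all. The 2 Pnmt probe sets were higher by 0.98 ± 0.19 and 0.58 ± 0.12 (adjusted p = 0.0016 and 0.00246), and Gch1 by 0.98 ± 0.18 (adjusted p = 0.00113). Slc18a2 was lower, with a difference of -0.73 ± 0.17 (adjusted p = 0.00671), and Maoa 1442676_at with -1.60 ± 0.20 (adjusted p = 4.87e-05). For Slc6a2 1460129_at the difference was -0.12 ± 0.42 (adjusted p = 0.878), where the values 608, 346 and 1836 at 18 spanned 733 to 952 at 10.

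Markers of other tissues also moved in this contrast. The 7 muscle markers summed to 944 to 36176 at circadian time 18 and 465 to 11247 at 10. The 6 liver markers summed to 2337 to 18677 at 18 and 1871 to 2331 at 10, and 2 of the 3 tested (Apoa2 and Ttr) were higher at 18. The 4 endothelial markers summed to 4300 to 5473 at 18 and 6460 to 6751 at 10, and 2 of them (Pecam1 and Plvap) were lower at 18. The profiles of 18 include 78 h replicate 2, the array with the Gapdh ratio of 0.0386, and all 7 calls held when it was left out. The part of these tissues in the 7 calls was not tested, apart from leaving out the muscle profiles.

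Without the 4 profiles with high Acta1, 1 profile is left at each time and the lone profiles are assumed to vary like the rest. The Pnmt probe sets and Gch1 1420499_at still passed, while Th gave 0.67 (adjusted p = 0.068), Slc18a2 -0.57 (adjusted p = 0.214) and the Maoa probe sets -0.23 and -1.02 (adjusted p = 0.379 and 0.0611). In the 24 h fit without the block, leaving them out moved calls in both directions. Slc18a2 (amplitude 0.32) and Maoa 1428667_at (0.25) lost their call. Gch1 1429692_s_at (0.29, against 0.28 with all profiles) and Slc6a2 1460129_at (1.25, against 0.82) gained one.

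Fewer chromaffin cells in a gland and less RNA per cell cannot be told apart in whole tissue. The mean of the 19 chromaffin markers was 10.54 at circadian time 2, 10.64 at 6, 10.69 at 10, 10.50 at 14, 10.58 at 18 and 10.42 at 22 on the log2 scale. Its own blocked amplitude was 0.10 with the peak at 7.27 h, near the peaks of Ddc and Slc18a2, and 4 of the 19 markers were rhythmic in the blocked fit (Phox2a, Gata3, Syt1 and Snap25), a share near the 16.7% of all genes. With this mean as a covariate beside the block, 8 of the 17 probe sets passed, against 7.45% of all. Both Pnmt probe sets kept their amplitude (0.90 ± 0.09 and 0.80 ± 0.05, adjusted p = 9.71e-05 and 1.24e-06), as did Slc6a2 1460129_at (1.28 ± 0.21, adjusted p = 0.00357) and Gch1 1420499_at (0.56 ± 0.09, adjusted p = 0.00308).

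Slc18a2, Ddc and Slc6a2 1447311_at passed in the blocked fit but not beside the marker mean. Slc6a2 1447311_at gave 0.19 ± 0.06 (adjusted p = 0.108). Slc18a2 gave 0.22 ± 0.07 (adjusted p = 0.122) and passed without the averaged 58 h and 82 h replicates 2 (0.0381). Ddc gave 0.18 ± 0.05 (adjusted p = 0.0604) and passed without 78 h replicate 2 (0.0119) and without the 4 muscle profiles (0.0349). Dbh 1459848_x_at and Slc18a1 both gave 0.05 (adjusted p = 0.473 and 0.658). Th gave 0.31 ± 0.06 with the peak at 18.7 h and passed here (adjusted p = 0.0181), a call lost without either 46 h replicate 1 (0.0603) or 54 h replicate 2 (0.0994). The Th call was also lost without the 4 muscle profiles, where the amplitude was 0.26. Maoa 1428667_at passed (0.21 ± 0.05, adjusted p = 0.0311) but lost the call in 9 of 18 leave-one-out runs. Gch1 1429692_s_at also passed (0.35 ± 0.08, adjusted p = 0.0374) but lost the call in 11 of 18 such runs.

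Across the 18 profiles, with each array set's mean taken out, Dbh, Ddc, Slc18a1 and Slc18a2 correlated with each other with Pearson r between 0.69 and 0.88. Each gene entered by its brightest probe set, so the other Slc6a2 probe sets, which disagree on the size of the rhythm, were left out. Pnmt correlated with Ddc at -0.72 and with Slc6a2 1460129_at at -0.79. These values describe profiles that share their circadian times. By the same measure over 13879 genes, the genes most like Pnmt were Gm12843, Rangap1 (both 0.94) and Fads1 (0.93), and those most like Slc6a2 1460129_at were Lrrc4c (0.91), Rnf144a and Svbp (both 0.90). For Ddc they were Pcbd1 (0.92), a dehydratase that regenerates tetrahydrobiopterin, then P4htm (0.91) and Adm (0.90). For Slc18a2 they were Tmx4 (0.94), Ptprz1 (0.92) and Usp27x (0.91). For Maoa they were Rasl10b, Zfp652 and Slc7a5 (all 0.94), and for Gch1 Wrnip1 (0.94), Procr and Mpdz (both 0.93).

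Other genes of the pathway were read from 4 lists by their brightest probe sets, beside 11.3% of all genes called without the block, 16.7% with it, and a median blocked amplitude of 0.09 over all genes. Of the tetrahydrobiopterin genes apart from Gch1, 0 of 6 passed with or without the block (median blocked amplitude 0.08). Pcbd2 passed within the first set (0.14 ± 0.03, adjusted p = 0.0396) and was higher at circadian time 18 than at 10 by 0.83 ± 0.09 (adjusted p = 1.15e-05), and Spr, sepiapterin reductase, was lower, with -0.27 ± 0.09 (adjusted p = 0.049). Both were named after their values were seen. Of the genes for other breakdown, conjugation and uptake, 3 of 10 passed without the block and 4 with it (median 0.13). They were the sulfotransferase Sult1a1 (blocked amplitude 0.32 ± 0.07, peak 16.7 h, adjusted p = 0.00945), Comtd1 (0.16 ± 0.04, 14.7 h, adjusted p = 0.0177), the monoamine carrier Slc29a4 (0.14 ± 0.03, 5.24 h, adjusted p = 0.0182) and the aldehyde dehydrogenase Aldh3a2 (0.12 ± 0.03, 6.53 h, adjusted p = 0.0284), which passed with the block alone.

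Of the genes that supply cofactors, 3 of 8 passed with and without the block (11.3% of all genes without it, 16.7% with it), and the median blocked amplitude of 0.09 equalled that of all genes. Pdxk, which makes the pyridoxal phosphate used by Ddc, peaked at 13 h (0.23 ± 0.05, adjusted p = 0.008). Ahcy, which clears the S-adenosylhomocysteine left by methylation, peaked at 18.2 h (0.15 ± 0.03, adjusted p = 0.0159). Cyb561, the granule cytochrome that regenerates ascorbate for Dbh, peaked at 9.69 h (0.13 ± 0.04, adjusted p = 0.0496).

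Of the genes that carry signals to the chromaffin cell, 2 of 10 passed without the block, near the 11.3% of all genes, and 6 with it, beside 16.7% (median blocked amplitude 0.27). The nicotinic receptor subunits Chrna3 and Chrnb4, which receive the splanchnic nerve's acetylcholine, peaked at 5.03 and 5.37 h (0.27 ± 0.05 and 0.27 ± 0.04, adjusted p = 0.0026 and 0.0012). Adcyap1r1, the PACAP receptor, peaked at 9.94 h (0.36 ± 0.06, adjusted p = 0.00179). Chrna3 and Adcyap1r1 were the 2 that also passed without the block. The transcription factors Tfap2a and Tfap2b peaked at 14.9 and 3.45 h (0.52 ± 0.10 and 0.29 ± 0.07, adjusted p = 0.00628 and 0.0167). Without the block neither passed (adjusted p = 0.377 and 0.791), and the second array set was fitted at -0.81 and 0.83 relative to the first. The highest mean of Tfap2b was 856 at circadian time 10, in the second set. The sixth was Egr1 (0.64 ± 0.16, peak 9.23 h, adjusted p = 0.0314), a factor known to act on Pnmt and named after its values were seen. Its mean signal was highest at circadian time 10 (4598), with 3071 at 18 and lowest at 22 (740). Times 10 and 18 lie in the second array set, fitted 1.14 above the first.

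**Figure D5:**
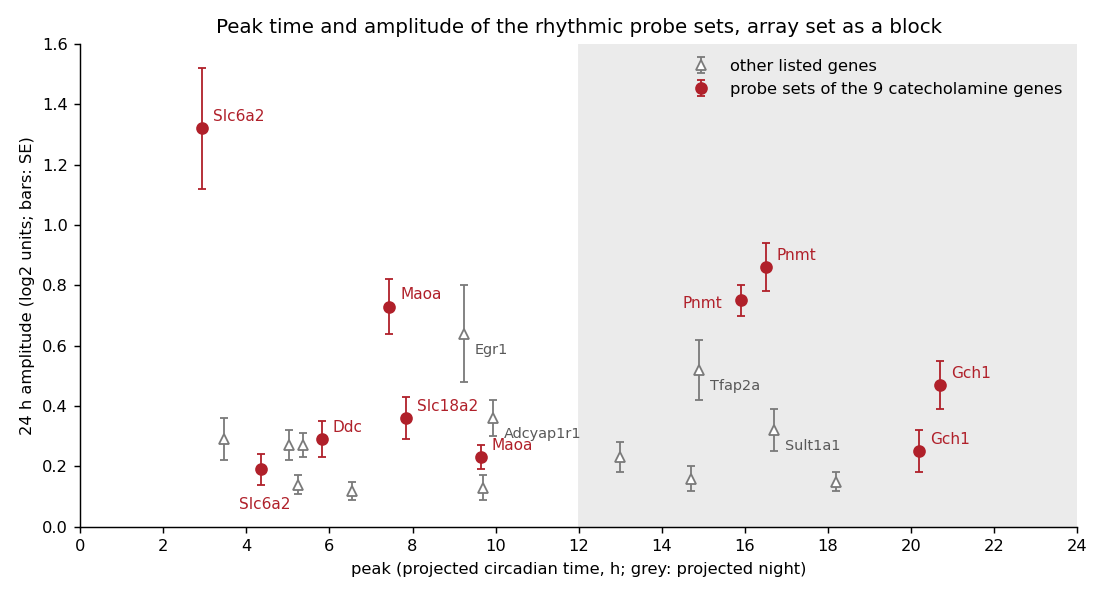
Blocked 24 h amplitude (log2 units, bars SE) against fitted peak in projected circadian time (hours) for the 10 probe sets of the catecholamine genes past an adjusted p of 0.05 (red circles) and the other listed genes past it (grey open triangles; those with an amplitude of 0.32 or more are named), with the projected night in grey. Pnmt and Gch1 peak in the night, between 15.9 and 20.7 h, and Ddc, Slc18a2, Maoa and Slc6a2 in the day, between 2.93 and 9.64 h.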

How the data were processed

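The values are probe set intensity values on a linear scale, as the authors deposited them for 24 Affymetrix arrays; their summarisation and scaling are not given in the sources used here. Each was taken as log2(intensity + 51), the 10th percentile of all values, so that folds of dim probe sets are understated. Of 45101 probe sets 64 controls were left out, and 27022 with a mean at or above the 40th percentile (a signal of 184) were tested. The 6 near-copy pairs were averaged on the log2 scale, which left 18 profiles. limma 3.58.1 in R 4.3.3 (package data.table, version 1.17.8) fitted a 24 h cosine and sine (moderated F test with trend), with no further term, with the array set as a block, within the first set, and with the chromaffin marker mean beside the block. It also tested circadian time 18 minus 10 within the second set. P-values were adjusted by Benjamini-Hochberg over all tested probe sets, and the threshold was 0.05. The fits were run on simulated data with independent noise and no difference between array sets, so that check does not cover the array set difference. Arrays give no read depth, so their number limits the precision. Groups came from the hours in the labels.

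The members, gene lists, array sets and tests were chosen with earlier results of these data known. All 21 probe sets of the 9 genes are accounted for, each gene led by its brightest; of each list up to 5 genes past the threshold are named by lowest p, and for each rhythmic member the 3 genes most like it. Alternatives were other offsets, no filter, quantile normalization, the brightest probe set per gene, all 24 arrays, replicate or time point blocks, and profiles left out.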

Additional observations from a re-analysis of the deposited data

How the results depend on the processing

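An amplitude has no sign, so peak times were compared in the 24 h fits without and with the block. No called catecholamine probe set moved its peak there by over 6 h under any alternative run. The main fits called 2743 of all probe sets (24 h rhythm), 4307 (array set as a block), 2722 (first set), 5871 (circadian time 18 minus 10) and 2013 (beside the chromaffin marker mean), with 7, 10, 9, 7 and 8 of the 17 catecholamine probe sets among them. With all 24 arrays as independent, which counts near-copies as separate samples, these counts were 7403, 8572, 6925, 9829 and 5346, with 14 catecholamine probe sets in the 24 h rhythm and 11 in circadian time 18 minus 10. The replicate numbers do not pair the samples: replicate differences at pairs of time points correlated between -0.53 and 0.52 (median 0.01, over 0.1 in 18 of 66 pairs). With a replicate block over all 24 arrays the counts were 7196, 8703, 7176, 10064 and 4548. Of the catecholamine probe sets, 14 passed the 24 h rhythm and 11 circadian time 18 minus 10 there. With the brightest probe set of each gene alone and fewer features tested, 1781, 2475, 1703, 2938 and 1304 genes passed, among them 3, 6, 4, 4 and 5 of the 9 members. Without the 4 profiles with muscle transcripts the 24 h rhythm called 1483 and circadian time 18 minus 10 called 1451, with 3 member probe sets in that contrast. Leaving out 1 profile at a time gave 1726 to 3340, 2915 to 4620, 1498 to 3052, 3947 to 7347 and 899 to 2516 calls, and 6 to 8, 8 to 10, 6 to 9, 7 to 8 and 5 to 9 member probe sets. The count moved by over 1.5 times without 46 h replicate 1 in the 24 h rhythm (1726), without any of the 3 profiles of circadian time 14 within the first set (1638, 1498 and 1740), and, beside the marker mean, without those 3 (1291, 899 and 1160), without 46 h replicate 1 (1140, with 5 members) or without 54 h replicate 2 (1075). The tally of single members covers the 24 h fits without and with the block. There 618 values stayed on their side of the threshold, 38 lost a call and 25 gained one. The cause was not tested.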
